A study of Homo sapiens with 8 samples.

Results

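LINC-named long non-coding RNAs were followed on 8 one-colour gene expression arrays of 2 human thyroid cell lines. The members are the non-control probes whose gene name on the array is LINC followed by digits, with LINC00473 left out, and they comprise 226 probes for 132 genes among 50599 probes and 36337 gene names. Nthy-ori 3-1, an immortalized follicular line of normal thyroid origin, gave 2 arrays of cells given pre-miR-375, a synthetic miRNA precursor, and 2 control arrays. TT, a line established from a medullary thyroid carcinoma (MTC), the tumour of the calcitonin-producing C cells, gave 2 arrays after antagomiR-375, an antisense inhibitor of the same miRNA, and 2 control arrays. The labels call all control samples CTL. The study's methods describe the cells on the arrays as transfected, and name pre-miR-CTL for Nthy-ori 3-1 and antagomiR-CTL for TT among the transfections. Their array section names only pre-miR-CTL as a control reagent, so the reagent of the TT control arrays is not settled. Per the labels, cells were taken 48 h after transfection with 5 nM of reagent in Nthy-ori 3-1 and 20 nM in TT, and the methods give higher concentrations for both. The study's methods call the replicates biological, while the labels do not say that the 2 arrays of a group came from separate cultures, and p-values measure only the spread between these samples. Each line stands for itself, since 1 line of each kind was used.

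The LINC prefix is a placeholder given by the gene nomenclature committee to long intergenic transcripts that have no function-based name. Long non-coding RNAs are transcribed and spliced much like mRNAs but are mostly less abundant and more restricted to particular cell types. Some carry miRNA hairpins in their introns and are known as miRNA host genes, some act as scaffolds or as transcripts that bind miRNAs, and a few were later found to encode short proteins. A miRNA such as miR-375, which is abundant in C cells and in MTC, represses mRNAs mainly through pairing of its seed, so an effect on a non-coding RNA may be direct or follow from other genes. Of the 132 LINC names, 94 are still the current RefSeq symbol, 36 were matched as an older symbol and 2 (LINC00315 and LINC00328) were not matched. RefSeq now lists 116 of them as long non-coding RNA, 12 as protein coding and 2 as pseudogenes.

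Of the members, 4 enclose miRNA hairpins on their own strand (128 members have a single interval in RefSeq, GRCh38.p14). LINC00478, now MIR99AHG, encloses MIR99A, MIRLET7C and the mature miR-125b-5p of MIR125B2, and LINC00461, now MIR9-2HG, encloses MIR9-2. LINC00085, now SPACA6, encloses MIR99B, MIRLET7E and MIR125A, the sister cluster of that in LINC00478, and LINC00338, now the snoRNA host SNHG20, encloses MIR6516. The mature sequences from RefSeq are shown because the 2 clusters share their seeds pair by pair, and because miR-375 is the miRNA that was added or inhibited. Capitals mark the seed, bases 2 to 8 of each miRNA.
hsa-miR-375-3p: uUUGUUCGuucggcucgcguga
hsa-miR-99a-5p (in LINC00478): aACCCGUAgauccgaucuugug
hsa-miR-99b-5p (in LINC00085): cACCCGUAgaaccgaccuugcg
hsa-let-7c-5p (in LINC00478): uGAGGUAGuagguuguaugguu
hsa-let-7e-5p (in LINC00085): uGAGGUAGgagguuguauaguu
hsa-miR-125b-5p (in LINC00478): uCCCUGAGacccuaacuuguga
hsa-miR-125a-5p (in LINC00085): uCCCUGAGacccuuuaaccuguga
hsa-miR-9-5p (in LINC00461): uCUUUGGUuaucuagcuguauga

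The arrays read each transcript through probes of 60 bases. Some probes of LINC00221, LINC00478, LINC00472 and LINC00340, whose readings in the 2 lines are given below, are shown here, 5′ to 3′. They are not the full set of the largest differences between the lines. Those of LINC00472 also show how far probes of a gene can repeat each other, and capitals mark the 39 bases that its 3 overlapping probes share, so that these are close to 1 measurement.
LINC00221, A_32_P162192 (chr14:106950219-106950278): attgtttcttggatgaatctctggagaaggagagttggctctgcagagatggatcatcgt
LINC00478, A_33_P3312384 (chr21:17979483-17979542): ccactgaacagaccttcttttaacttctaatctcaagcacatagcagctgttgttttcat
LINC00478, A_33_P3406886 (chr21:17443575-17443634): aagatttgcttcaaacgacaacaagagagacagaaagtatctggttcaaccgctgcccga
LINC00472, A_19_P00316985 (chr6:72126164-72126223): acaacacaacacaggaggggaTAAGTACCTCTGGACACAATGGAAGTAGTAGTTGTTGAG
LINC00472, A_19_P00321203 (chr6:72126162-72126221): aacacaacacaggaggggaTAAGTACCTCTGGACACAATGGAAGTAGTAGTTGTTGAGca
LINC00472, A_19_P00322149 (chr6:72126143-72126202): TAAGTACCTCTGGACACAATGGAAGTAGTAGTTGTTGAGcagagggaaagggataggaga
LINC00340, A_19_P00809119 (chr6:22110999-22111058): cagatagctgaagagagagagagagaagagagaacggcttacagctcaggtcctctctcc
LINC00340, A_24_P838448 (chr6:22194466-22194525): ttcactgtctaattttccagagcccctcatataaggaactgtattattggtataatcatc
LINC00340, A_19_P00318323 (chr6:22194555-22194614): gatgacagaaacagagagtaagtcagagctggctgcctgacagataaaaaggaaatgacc
Coordinates are on hg19, the build of the file headers. The LINC00472 probes lie on the minus strand and the others shown on the plus strand. Across all members, 16 probes of 6 genes overlapped another probe of their gene, by 2 to 58 bases.

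LINC-named probes were seen less often than other probes on every array. A probe counts as detected here when the scanner software flags it as well above background, and 84 to 112 of the 226 member probes (37.2% to 49.6%) were so on an array, against 51.6% to 61.1% of all probes. Of the members, 63 probes of 42 genes were detected on all 8 arrays, which is 27.9% of them against 43.9% of all probes. On none of the 8 arrays were 87 member probes detected (38.5%, against 27.5% of all), and for 43 genes this held for every probe. More member probes were seen in both lines than in 1 only, with a smaller shared part than among all probes. Both control groups detected 67 probes of 46 genes on both of their arrays (29.6%, against 45.6% of all probes). On both TT controls but neither Nthy-ori 3-1 control were 20 probes of 17 genes (8.85%, against 7.16% of all). The other way round were 10 probes of 5 genes (4.42%, against 2.86% of all). LINC00493, now SMIM26, a gene for a small mitochondrial protein, was detected on all 8 arrays, with a normalized log2 intensity of 13.93 to 14.54.

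**Figure D1:**
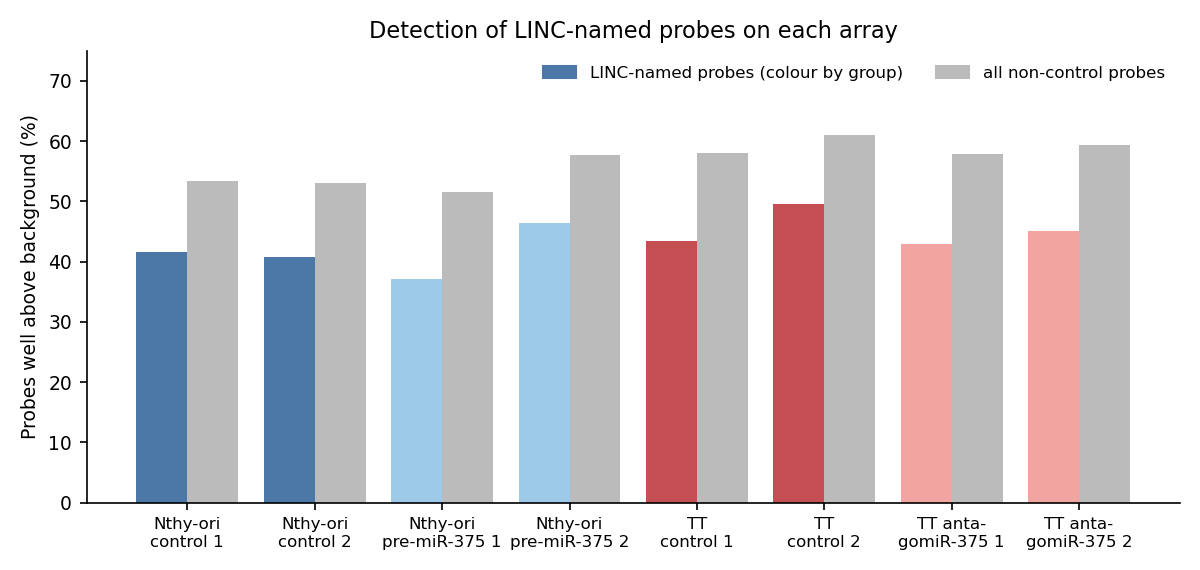
Share of probes flagged as well above background on each of the 8 arrays (percent, y axis), coloured bars for the 226 LINC-named probes and grey bars for all 50599 probes. The member share lay between 37.2% and 49.6% and below the grey bar on every array.

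The lines matched their labels by some defining markers and not by others. All 6 C cell markers on the array were detected on both TT controls, with calcitonin (CALCA) at 18.49 and 18.61, and 1 of them, RET, was detected on both Nthy-ori 3-1 controls. Of 7 follicular markers 4 were detected on both Nthy-ori 3-1 controls, among them PAX8 and FOXE1, and 5 on both TT controls. The thyrotropin receptor TSHR was not detected on any control array, and NKX2-1 was detected in the TT controls only. Of 5 fibroblast markers 2 were detected in each line, COL1A1 at 14.21 and 13.39 in Nthy-ori 3-1, and 3 of 4 leukocyte markers in both lines. CALCA, not detected in the Nthy-ori 3-1 controls, read 8.12 and 4.51 on the pre-miR-375 arrays. By the labels, RNA integrity was 8 in each TT control and 9 in every other sample, so RNA quality and antagomiR-375 cannot be told apart in TT. No member spot was saturated.

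The control arrays of the 2 lines were compared first, to show which LINC transcripts each line has. LINC00221, LINC00478, LINC00403, LINC00159 and LINC00511 were higher in TT and not well above background on at least 1 Nthy-ori 3-1 control array, so that their differences are bounds and have no order. LINC00239 and LINC00246A were higher in TT and detected in both lines. LINC00472 and LINC00460 were higher in Nthy-ori 3-1 and, with most of their probes, not well above background in TT. Of the 111 member probes tested (73 genes), 45 differed by at least 2-fold at an adjusted p of at most 0.05 in limma, which is 40.5% beside 40.9% of all 30459 probes tested. They were 25 probes of 18 genes higher in TT (22.5%, background 20.7%) and 20 probes of 13 genes higher in Nthy-ori 3-1 (18.0%, background 20.2%), with LINC00340 and LINC00112 in both lists. The median log2 difference was 0.12 over the members and -0.014 over all probes.

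These counts rest on how a probe entered the test, which was detection on both arrays of at least 1 group. Through a single group 44 of the 111 probes entered, a route that favours a difference. Of these 34 were called (77.3%), against 66.3% of all probes that entered this way. Of the 67 member probes detected in both lines, 11 were called (16.4%), against 32.8% of all probes detected in both. Without either TT control replicate the calls fell, among the members and among all probes alike. Each slide held 1 line, so that slide and line cannot be told apart. The same holds for the control reagent, if it differed, for its concentration (20 nM in TT, 5 nM in Nthy-ori 3-1) and for RNA integrity (8 in the TT controls, 9 in the Nthy-ori 3-1 controls).

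**Figure D2:**
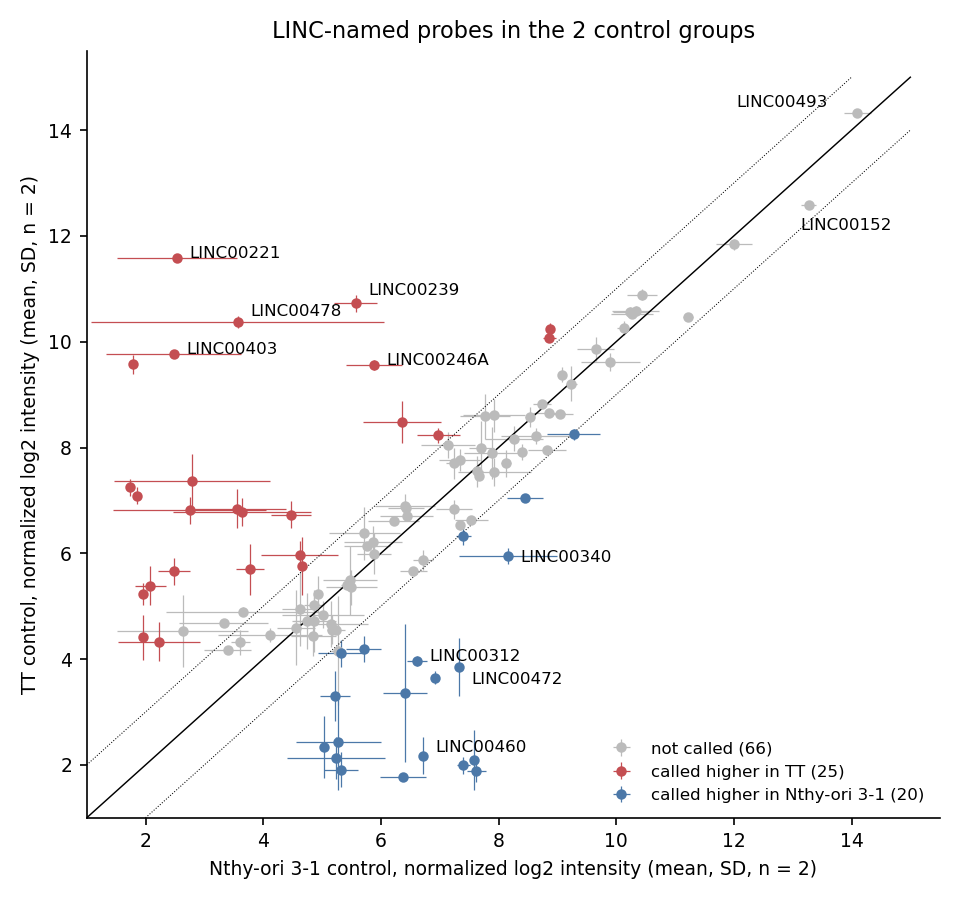
Mean normalized log2 intensity of the 111 tested LINC-named probes in the Nthy-ori 3-1 controls (x axis) and the TT controls (y axis), with SD over 2 arrays as bars, the line of equal values and dotted lines at 2-fold. The 25 probes called higher in TT lie above the upper dotted line, the 20 called higher in Nthy-ori 3-1 below the lower one, and LINC00493 and LINC00152 near the upper end of the diagonal.

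The miRNA host LINC00478 was a TT transcript. Its probe A_33_P3312384, the farthest downstream of 3, read 9.70 and 9.44 in the TT controls, against 1.76 and 1.79 in the Nthy-ori 3-1 controls, a log2 difference of 7.79 ± 0.20 (SE, adjusted p = 0.000121). The Nthy-ori 3-1 value is not well above background, so the difference is given as at least 37.0-fold. Dim spots carry surrogate values in place of measured ones. For this and every other bounded difference, the SE and p therefore do not measure the spread in the dim line. A second probe, A_24_P229536, read 10.45 and 10.30 in TT, and 5.33 and 1.81 in Nthy-ori 3-1. The groups of both probes were far apart. The Nthy-ori 3-1 replicates of the second probe differed widely, and its adjusted p of 0.0123 rose to 0.0775 without TT control replicate 1 and to 0.0728 without TT control replicate 2. With normexp background correction its log2 difference was 4.11 in place of 6.80. Probe A_33_P3406886, at the upstream end of the 535968 bases that the probes span, was at 3.55 and 3.83 in the TT controls, of which 1 was well above background.

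LINC00461, the host of miR-9-2 and known mainly from brain, followed the same order of lines with 1 of its 2 probes. The other, A_33_P3347672, read 1.84 and 2.01 in the TT controls and was well above background on 0 of the 8 arrays. Probe A_32_P127350 read 6.97 and 6.59 in the TT controls. It read 4.48 and 2.81 in the Nthy-ori 3-1 controls, where neither array was well above background. The log2 difference was 3.14 ± 0.61 (adjusted p = 0.0157), at least 5.08-fold. The adjusted p rose to 0.0978 and 0.0771 without TT control replicate 1 or 2, and to 0.0582 with every probe tested, and the log2 difference was 1.19 with normexp.

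LINC00085, which holds the sister cluster, did not share the pattern. The probe that stands for it here, that with the highest mean over the 8 arrays, read 10.62 and 10.05 in Nthy-ori 3-1 and 10.64 and 10.51 in TT, so that the groups overlapped, and its 3 probes gave log2 differences of 0.24, 0.42 and -0.49, with adjusted p from 0.105 to 0.50. LINC00338 was detected on all 8 arrays by each of its 4 probes. Its probe A_19_P00320090 read 8.83 and 8.93 in Nthy-ori 3-1 and 10.32 and 10.16 in TT, 2.57-fold higher in TT (log2 difference 1.36 ± 0.19, adjusted p = 0.00607). A neighbouring probe gave 1.21, and the other pair, which share 26 bases, gave 0.82 and 0.69 and were not called.

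Outside the hosts, LINC00221 had the highest bound in TT. This non-coding gene of the immunoglobulin heavy chain region on chromosome 14 read 11.60 and 11.57 in the TT controls and 3.26 and 1.81 in the Nthy-ori 3-1 controls with probe A_32_P162192, a log2 difference of 9.05 ± 0.52 (adjusted p = 0.000523), at least 150-fold. Its other probe, A_33_P3464438, which lies within the same 26606 bases, read 5.84 and 5.47 against 2.29 and 2.67 (difference 3.17 ± 0.25, at least 2.46-fold). Both probes put the TT arrays above both Nthy-ori 3-1 arrays, with very different sizes. LINC00403, now SOX1-OT, a transcript that overlaps the neural transcription factor gene SOX1, read 9.71 and 9.81 against 3.30 and 1.67, at least 42.2-fold higher in TT (adjusted p = 0.00125).

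LINC00239 was the member detected on all 8 arrays with the largest difference. It read 10.84 and 10.61 in the TT controls and 5.84 and 5.31 in the Nthy-ori 3-1 controls, 35.6-fold higher in TT (log2 difference 5.15 ± 0.26, adjusted p = 0.000389). LINC00246A, now FAM226A and part of a family of near-identical copies on the X chromosome that the probes may not separate, read 9.63 and 9.48 against 6.22 and 5.54, 12.8-fold higher in TT (3.68 ± 0.30, adjusted p = 0.00128). Its other probe, A_33_P3347037, read 5.76 and 6.16 against 4.16 and 5.07, 2.54-fold higher (1.35 ± 0.38, adjusted p = 0.0462). LINC00159 read 7.37 and 7.14 against 1.73 and 1.75 (at least 7.42-fold, adjusted p = 0.000175). LINC00242 read 7.0 and 6.63 against 3.67 and 1.83 (at least 5.48-fold, adjusted p = 0.00953), a call that was lost without TT control replicate 1 (adjusted p = 0.0697) or 2 (0.0578). With normexp background correction, which compresses dim values, the log2 differences were 5.60 for LINC00221, 3.92 for LINC00403, 4.04 for LINC00239, 2.71 for LINC00246A, 1.77 for LINC00159 and 1.37 for LINC00242, so sizes and bounds hold only for the normalization used here.

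LINC00472 was higher in Nthy-ori 3-1, and all 6 of its probes were called. Probe A_19_P00321203 read 7.51 and 7.74 in the Nthy-ori 3-1 controls and 1.74 and 2.02 in the TT controls, a log2 difference of -5.74 ± 0.22 (adjusted p = 0.0002), at least 16.2-fold. The 2 probes that overlap it gave -5.49 and -5.41, and the 3 that do not gave -3.26, -3.48 and -4.58. Its nearest protein-coding gene on the array, OGFRL1 at 98805 bases, was also lower in TT, by -3.22 on the log2 scale (adjusted p = 0.000537).

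LINC00460, a transcript much studied in carcinoma cell lines, read 6.67 and 6.76 in Nthy-ori 3-1 and 1.93 and 2.42 in TT with probe A_21_P0000640 (-4.54 ± 0.25, adjusted p = 0.000453, at least 8.65-fold). A second probe gave -3.12, and its remaining probe was not well above background on any control array. LINC00312 read 6.50 and 6.74 against 3.90 and 4.03, with 1 of 2 TT arrays well above background, 6.31-fold higher in Nthy-ori 3-1 (-2.66 ± 0.20, adjusted p = 0.00108), but -1.03 on the log2 scale with normexp background correction. Smaller differences in this direction were those of LINC00238, now CCDC196 (-3.41, at least 3.30-fold), LINC00256A, now FAM225A (-2.84, at least 3.19-fold), LINC00471 (-1.52) and LINC00263, now OLMALINC (-1.41). Among these 4, the call of LINC00256A was lost without Nthy-ori 3-1 control replicate 2 (adjusted p = 0.0619) or TT control replicate 1 (0.0825), and the calls of LINC00471 and LINC00263 without either TT control replicate (0.0571 to 0.0889). With normexp the log2 differences shrank to -1.36 for LINC00460, -1.46 for LINC00472 (A_19_P00319404), -0.77 for LINC00238, -0.64 for LINC00256A and -0.50 for LINC00471, so that the bounds hold for the normalization used here.

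**Figure D3:**
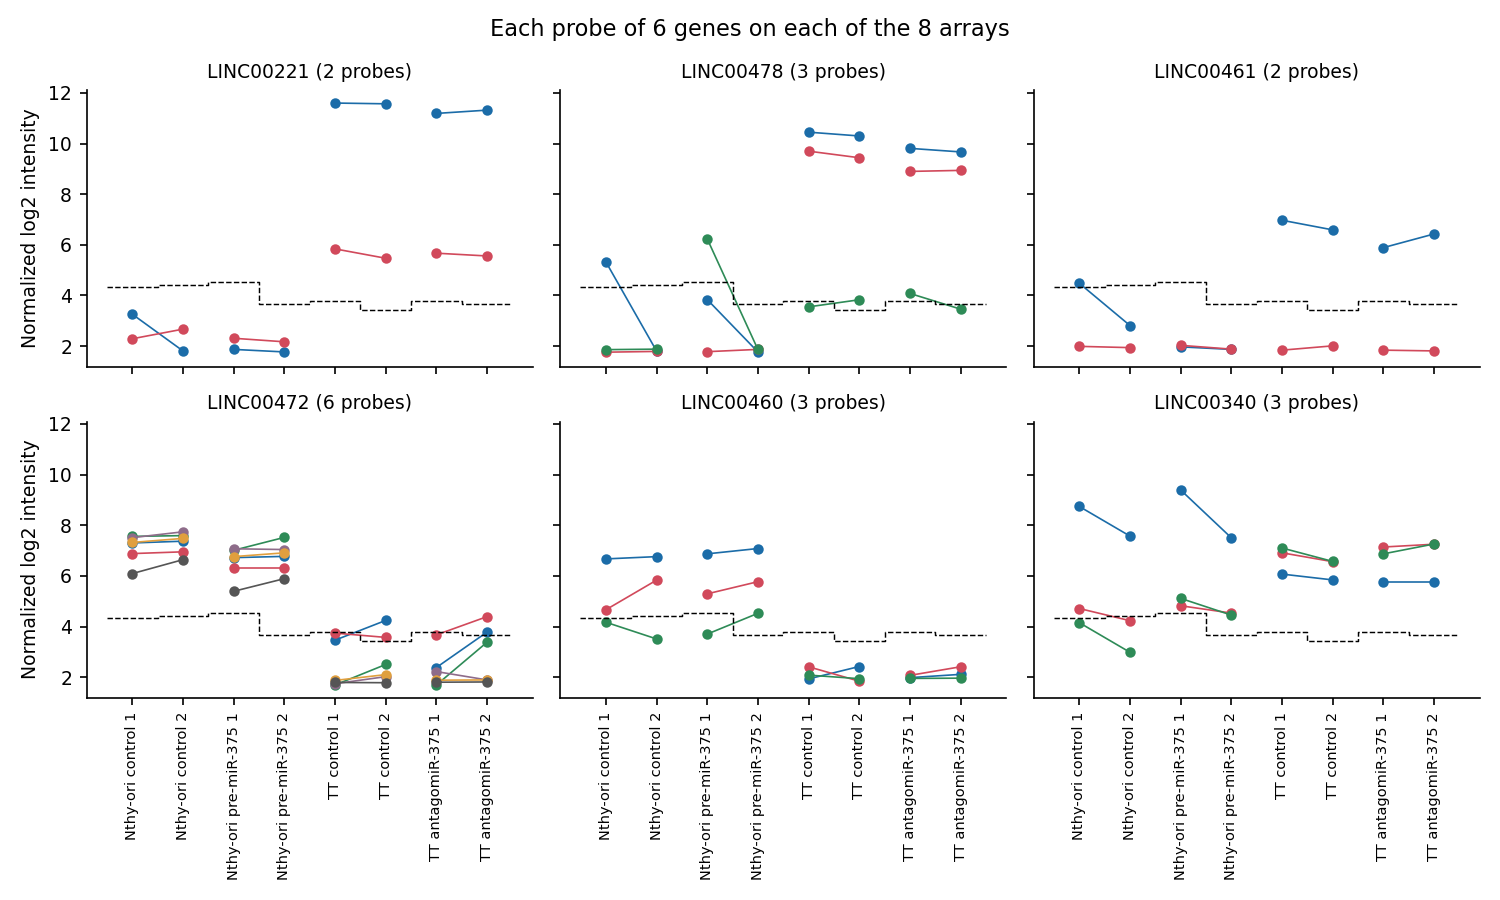
Normalized log2 intensity (y axis) of every probe of 6 LINC-named genes on each of the 8 arrays (x axis), 1 colour per probe within a panel, replicates joined by a line, with the dashed line at the lowest signal of any probe well above background on that array. The bright probes of LINC00221, LINC00478 and LINC00461 lie above it on the TT arrays, those of LINC00472 and LINC00460 on the Nthy-ori 3-1 arrays, and the 3 probes of LINC00340 change order between the lines.

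For 10 of the 21 genes with at least 2 probes in the comparison of lines, the probes differed in sign, and for LINC00340 and LINC00112 they were called both ways. LINC00340, now CASC15, is a long locus next to SOX4. Its probe with the highest mean, A_19_P00809119, read 8.74 and 7.57 in Nthy-ori 3-1 and 6.07 and 5.84 in TT (-2.2 ± 0.44, adjusted p = 0.0174). The 2 probes toward the far end of the 83616 bases its probes span read 4.71 and 4.23 against 6.91 and 6.56 (2.26 ± 0.27, adjusted p = 0.00387) and 4.15 and 2.98 against 7.10 and 6.57 (3.27 ± 0.47, adjusted p = 0.00666). The first was thus higher in Nthy-ori 3-1 and the other 2 higher in TT, and the call of the first was lost without TT control replicate 1 (adjusted p = 0.0889) or 2 (0.106). SOX4, its nearest protein-coding gene, was higher in TT by 2.95 (adjusted p = 0.000873). LINC00112 was lower in TT with 1 probe (-1.93) and higher with the other (1.1).

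LINC00087 is one of a pair of near-identical genes on the X chromosome, now SMIM10L2A and SMIM10L2B, that the old names LINC00086 and LINC00087 do not separate. The probe with the highest mean read 8.48 and 8.59 in Nthy-ori 3-1 and 8.45 and 8.71 in TT, a difference of 0.04 ± 0.20. The other pair of probes, at the far end of the 3442 bases its probes span, gave -3.04 and -2.69, both called lower in TT. In the TT controls A_32_P104432 read 4.29 and 2.44, with 1 of the 2 arrays well above background. A_21_P0013870 read 2.75 and 1.93 there, neither well above background, so its difference is at least 2.7-fold. LINC00086 read 7.39 and 7.28 against 6.47 and 6.58 (-0.81 ± 0.19, adjusted p = 0.0259), under the 2-fold limit.

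Of 17 LINC RNAs listed as much studied in cell lines, 12 were on the array and 11 were detected on both arrays of at least 1 group. Called by at least 1 probe were 2 as higher in TT (LINC00511 and LINC00340) and 4 as higher in Nthy-ori 3-1 (LINC00312, LINC00340, LINC00460 and LINC00472). These are counts of genes, and 40.9% of all probes tested between the lines were called. LINC00511 read 7.20 and 6.97 in TT and 1.81 and 1.90 in Nthy-ori 3-1 with probe A_21_P0011646, at least 6.62-fold higher in TT (adjusted p = 0.0002). LINC00152, now CYTOR, which is tied to the cytoskeleton and has a near-identical copy elsewhere in the genome, gave 13.36 and 13.18 in Nthy-ori 3-1 and 12.63 and 12.52 in TT (-0.69 ± 0.19, adjusted p = 0.0443), under the 2-fold limit. LINC00346, LINC00467, LINC00176 and LINC00277 (now EWSAT1) gave log2 differences between -0.41 and 0.45 with the probes that stand for them and were not called. LINC00324 read 5.03 and 4.06 in TT and 3.42 and 1.85 in Nthy-ori 3-1 (adjusted p = 0.0734), and was well above background in the TT controls only.

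Of 10 genes listed for a small protein, 5 were on the array and 4 were detected. Of these, 1 was called, LINC00087, by 2 of its 3 probes. LINC00493 (SMIM26) read 14.27 and 13.93 in Nthy-ori 3-1 and 14.32 and 14.33 in TT, so that the groups were within 0.22 ± 0.21 of each other (adjusted p = 0.434). LINC00094, now BRD3OS, read 11.27 and 11.16 against 10.49 and 10.43 (-0.76 ± 0.19, adjusted p = 0.0306). Of the 12 members that are protein coding now, 9 were detected and 2 were called by at least 1 probe, LINC00087 and LINC00238. The counts of both lists are of genes, beside 40.9% of all probes tested that were called. Not called were LINC00176, LINC00341 and LINC00483, which gave -0.28 for LINC00176 (now C20orf204), 0.30 for LINC00341 (now SYNE3) and 0.78 for LINC00483 (now ANKRD40CL), with adjusted p from 0.0724 to 0.501. LINC00483 read 3.12 and 3.68 in Nthy-ori 3-1, neither well above background, and 4.13 and 4.21 in TT, and with scaling to the 75th percentile it gave 1.21 (adjusted p = 0.0163).

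Adding miR-375 to Nthy-ori 3-1 cells was the next comparison. The largest log2 differences among the named members were those of LINC00246A upward (0.98) and LINC00294 downward (-0.85), and the 6 probes of LINC00472 were all lower after pre-miR-375. None of these passed the threshold. Of 89 member probes tested (56 genes), 1 was called, which is 1.12% beside 3.8% of all 26318 probes tested (2.48% lower). A fold rule with no p was also used here, in both directions, with the limits on level and change taken from the study's selection of lower genes, namely an average log2 intensity of at least 6 and a change of at least 1, and the same direction required in both replicate pairs. Past it were 0 members, beside 3.82% of all probes. At an unadjusted p under 0.05 were 27 member probes (30.3%), beside 29.8% of all, and the median log2 difference was 0.13 over the members and 0.031 over all probes. With groups of 2, an exact permutation test of a single probe that ignores the pairs cannot give a two-sided p below 0.333. Swapping only within the pairs leaves fewer arrangements.

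The 1 probe called was A_33_P3398266 of LINC00112, a chromosome 21 transcript. It read 5.05 and 5.40 in the controls and 3.77 and 4.2 after pre-miR-375, a log2 difference of -1.24 ± 0.12 (adjusted p = 0.0443), near the limit of detection and well above background on 1 of the 2 treated arrays. The other probe of the gene read 4.67 and 4.65 against 4.6 and 5.91 (0.59 ± 0.37, adjusted p = 0.358). The call was lost with every probe tested (adjusted p = 0.318), with normexp background correction (0.0507), with normalization within the line (0.0508) and without the replicate block (0.337), and the difference shrank to -0.37 with normexp and -0.43 with the deposited values.

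LINC00246A read 6.22 and 5.54 in the controls and 7.03 and 6.69 after pre-miR-375, higher by 0.81 and 1.16 in the 2 pairs on the log2 scale (0.98 ± 0.15, adjusted p = 0.0593). Its other probe, well above background on 1 of 2 arrays of each group and not tested, read 4.16 and 5.07 against 4.16 and 5.02. LINC00294 read 9.59 and 8.96 against 8.59 and 8.27 (-0.85 ± 0.14, adjusted p = 0.0651). The groups of LINC00294 and of the tested LINC00246A probe did not overlap. The probe A_19_P00319404 of LINC00472 read 7.30 and 7.37 against 6.72 and 6.77 (-0.59 ± 0.12, adjusted p = 0.0788), and the 6 probes of the gene, 3 of them overlapping, lay between -0.73 and -0.31, with adjusted p from 0.0623 to 0.303. OGFRL1, beside LINC00472, read lower by -0.81 (adjusted p = 0.0596).

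Whether these members were called depended on the processing. LINC00246A, LINC00294 and at least 1 probe of LINC00472 were called when a probe had to be detected on all 4 arrays (6 of 78 member probes, beside 2655 of all 24188), with normexp background correction (9 of 89, beside 4826 of 26318) and with the values as deposited (11 of 89, beside 4102 of 26318). None was called with every probe tested, with normalization within the line or without the replicate block. Of all calls, 34.7% were higher after pre-miR-375, against 46.7% with normexp and 49.0% with the deposited values. The direction of the 10 named members was the same in every setting tried. They were picked for 1 direction in both pairs, so leaving out a pair could not change it. For LINC00246A the log2 difference ranged from 0.52 to 1.16.

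**Figure D4:**
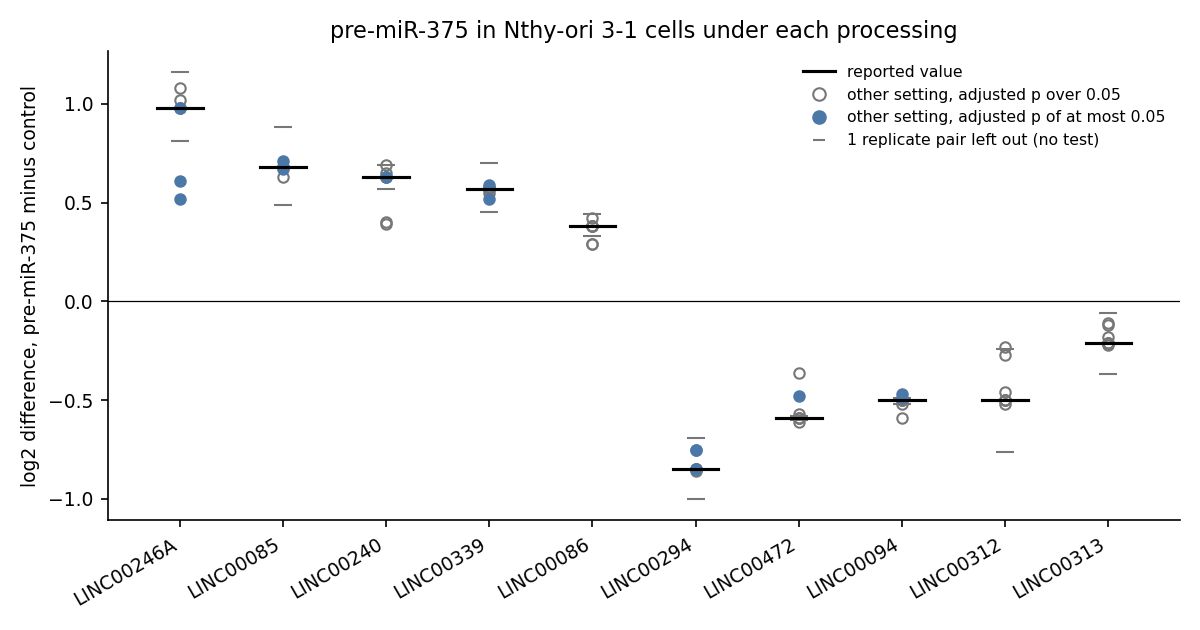
Log2 difference between pre-miR-375 and control Nthy-ori 3-1 arrays (y axis) for the 10 named LINC genes (x axis), with the reported value as a black bar, other processing settings as circles, filled where the adjusted p was at most 0.05, and dashes where 1 replicate pair was left out. LINC00294 lies between -1.0 and -0.69 and LINC00246A between 0.52 and 1.16.

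Probe A_19_P00318323 of LINC00340, at an average under 6, had a larger upward difference than the members named by the rule. It read 4.15 and 2.98 in the controls, neither well above background, and 5.11 and 4.45 after pre-miR-375 (1.22 ± 0.18, adjusted p = 0.0581), at least 1.34-fold. The other probes of the gene gave 0.29 and 0.20. LINC00471 read 5.93 and 5.50 against 5.22 and 4.96 (-0.63 ± 0.12, adjusted p = 0.0796). LINC00173 was not named by the rule, since its brightest probe gave 0.87 and -0.28 in the 2 pairs. Its probe A_33_P3331511 gave 0.85 ± 0.12 (adjusted p = 0.0542) and A_21_P0000535 gave 0.84 ± 0.17 (0.0835). At least 1 probe of LINC00173 was called with detection on all 4 arrays, normexp, scaling to the 75th percentile and the deposited values. It was not called in the other settings with a test.

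The other members named for the size of their difference moved by less. LINC00085 read 10.62 and 10.05 in the controls and 11.11 and 10.92 after pre-miR-375 (0.68 ± 0.15, adjusted p = 0.0934), and its other 2 probes gave 0.53 and -0.05. LINC00240 gave 0.63 ± 0.12, with controls at 6.83 and 5.89 and treated arrays at 7.53 and 6.46, so that the groups overlapped although both pairs read higher. The 3 probes of LINC00339 gave 0.57, 0.52 and 0.46, and LINC00086 gave 0.38. Lower readings were those of LINC00094 (-0.50 ± 0.12), LINC00312 (-0.50 ± 0.18) and LINC00313 (-0.21 ± 0.14), with adjusted p from 0.0956 to 0.383. The 2 probes of LINC00478 tested in TT were not tested here, and its upstream probe read 6.24 on the first pre-miR-375 array and 1.86 to 1.88 on the other Nthy-ori 3-1 arrays.

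Inhibiting miR-375 in TT cells left most LINC transcripts near their control level. Of 98 member probes tested (69 genes), 0 were called by limma, as were 0% of all 29141 probes, where the smallest adjusted p was 0.285. At an unadjusted p under 0.05 were 12 member probes (12.2%, background 15.2%). For 87 of the 98 probes (88.8%, against 87.1% of all) the log2 difference was under 0.5 in size, and it had the same direction in both replicate pairs for 46.9% of the members and 64.9% of all probes. The miRNA hosts LINC00478 and LINC00461 were the 2 members past the fold rule used here, with the limits the study set for higher genes in this line (an average log2 intensity of at least 6 and a change of at least 0.6) applied in both directions and the same direction required in both pairs. They had 3 probes past it, all lower, a direction that the study's own selection did not cover. That is 3.06% of the member probes, beside 1.06% of all probes lower and 3.05% in either direction. No member was past the rule in the other direction, beside 2.00% of all.

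**Figure D5:**
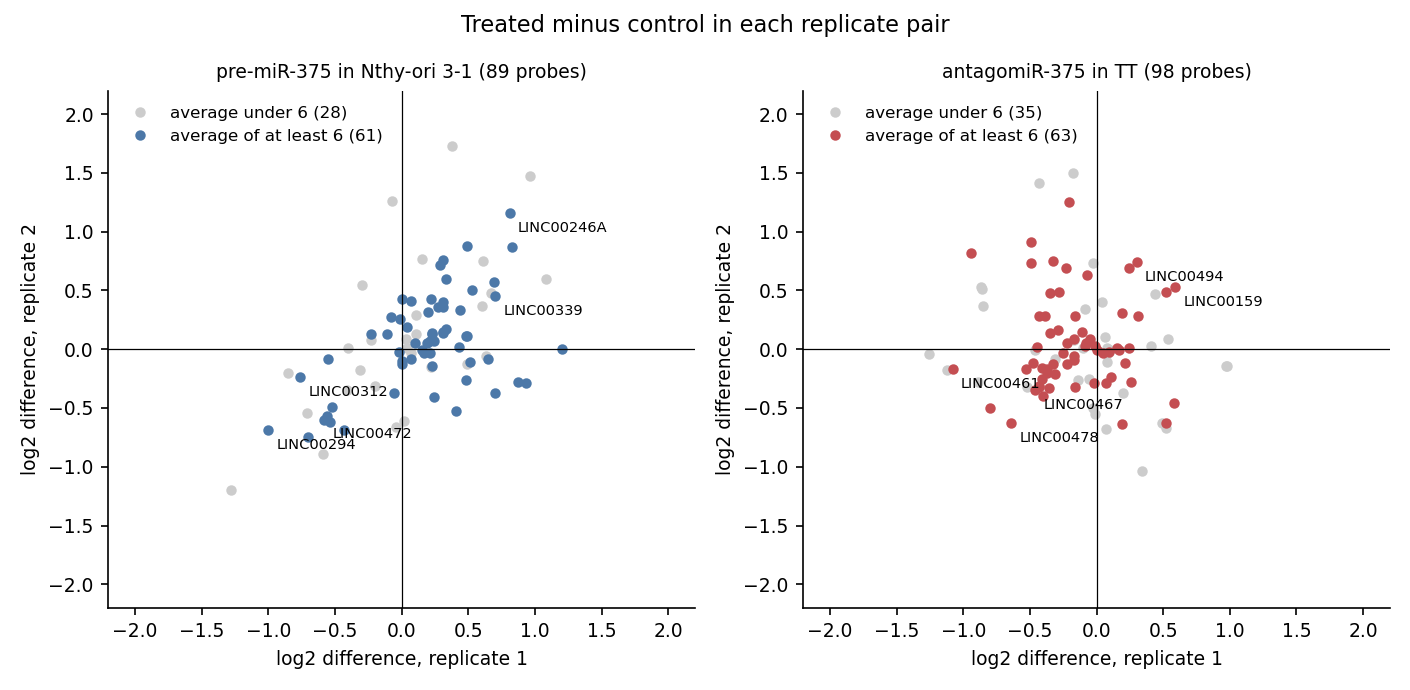
Log2 difference of treated minus control arrays in replicate pair 1 (x axis) and pair 2 (y axis) for each tested LINC-named probe, 89 for pre-miR-375 in Nthy-ori 3-1 (left) and 98 for antagomiR-375 in TT (right), grey where the average log2 intensity was under 6. LINC00294 and LINC00472 lie at the lower left on the left, and LINC00478 at -0.64 and -0.63 on the right.

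LINC00478 read 10.45 and 10.30 in the TT controls and 9.81 and 9.67 after antagomiR-375 with probe A_24_P229536, a log2 difference of -0.64 ± 0.11 (adjusted p = 0.285). Probe A_33_P3312384 read 9.70 and 9.44 against 8.90 and 8.94 (-0.65 ± 0.14, adjusted p = 0.286). With both probes the groups did not overlap and both pairs read lower. The RNA integrity number differs between these groups, and its part in the result was not tested. LINC00461, with the only 1 of its 2 probes that was tested, read 6.97 and 6.59 against 5.89 and 6.43 (-0.62 ± 0.28, adjusted p = 0.399). The difference came to -1.08 in pair 1 and -0.17 in pair 2. LINC00085, with the sister cluster, gave -0.27, -0.26 and -0.16 with its 3 probes (adjusted p 0.387 to 0.595).

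LINC00338 and LINC00467 had several probes with like differences in TT. Probe A_19_P00320090 of LINC00338 read 10.32 and 10.16 in the controls and 9.91 and 9.77 after antagomiR-375 (-0.40 ± 0.11, adjusted p = 0.308). Of its other 3 probes 1 gave -0.34 and the overlapping pair -0.06 and -0.11. LINC00467 read 10.96 and 10.82 against 10.49 and 10.47 (-0.41 ± 0.11, adjusted p = 0.31), and its other 3 probes, 2 of which share 44 bases, gave -0.38, -0.37 and -0.29. LINC00240 read lower by -0.35 ± 0.15 (adjusted p = 0.381).

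Readings above the control were smaller in number. LINC00159 read 7.37 and 7.14 in the TT controls and 7.95 and 7.66 after antagomiR-375 (0.56 ± 0.11, adjusted p = 0.285). LINC00494 read 8.33 and 8.12 against 8.62 and 8.87 (0.52 ± 0.17, adjusted p = 0.328). LINC00263 gave 0.30 ± 0.11 and, with its second probe, 0.51 ± 0.11. LINC00482 gave 0.12 ± 0.13, and no other member met the conditions for a named rise in TT. LINC00221, seen only in the TT arrays, read 11.19 and 11.32 after antagomiR-375 (-0.33 ± 0.12, adjusted p = 0.345), and LINC00403 read 9.76 and 9.78 (0.01 ± 0.11, adjusted p = 0.971). Both treatments share their control arrays with the comparison of lines, so the values are given side by side only.

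LINC00461 and its neighbour MEF2C, a transcription factor gene of neurons and muscle, gave -0.62 and -0.67 with antagomiR-375, neither called. Such a shared sign was not general among members paired with their nearest protein-coding gene on the array. It was found in 29 of 50 pairs (58%) with antagomiR-375 and 25 of 38 (65.8%) with pre-miR-375. Between the lines it was found in 31 of 55 pairs (56.4%), and the same share for other genes was not computed. The complement of bases 2 to 7 of miR-375 shown above, GAACAA, was looked for in the probe sequences on their own strand and occurred in 5 of the 226 member probes (2.21%), and in 2.21% of all probes. On the other strand it occurred in 2 member probes and 2.00% of all. The longer CGAACAA, which contains it, occurred in 0 member probes, and in 0.0613% of all. These windows cover 60 bases of each transcript, and a match there is a description of letters only.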

How the data were processed

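The authors labelled RNA of 8 samples for Agilent one-colour arrays (design 039494; RNA called polyA in the labels and total in the methods). The deposited intensity files (Feature Extraction 10.10.1.1, hg19) hold processed, mean and background intensity per spot. Dim spots carry surrogate processed values. The authors also deposited log2 values, which were quantile normalized within each line. Here log2 processed intensity, without control and outlier spots, was averaged per probe and quantile normalized over 8 arrays with limma 3.58.1 in R 4.3.3. Probes well above background on both arrays of at least 1 group were tested, in each line with the replicate (shared slide) as a block and between lines without, with Benjamini-Hochberg adjustment over all probes tested. Replicate deviations in control and treated arrays correlated at 0.785 (Nthy-ori 3-1) and 0.329 (TT). A difference from a group below background was bounded at the lowest signal well above background. Members, lists and the filter on dim probes were chosen with earlier results of these data known. Named are the 5 largest differences each way per treatment and the 8 largest between lines by the brightest probe (in the treatments at an average of at least 6 and 1 direction in both pairs), members now protein coding, miRNA hosts and 2 lists. LINC00112, LINC00173 and LINC00471 with pre-miR-375, and second probes, were chosen after their values were seen. The number of arrays limits the precision. The steps were tested on simulated data.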

Additional observations from a re-analysis of the deposited data

How the results depend on the processing

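With pre-miR-375, the 1 member probe called became 0 with all probes tested, 6 with detection on all 4 arrays, 9 with normexp, 2 with scaling to the 75th percentile, 11 with the deposited values, 0 with normalization within each line and 0 without the replicate block. The 0 members past the fold rule became 1 with scaling to the 75th percentile and 1 with normalization within each line, and 1 to 2 with 1 replicate pair left out, where no direction in both pairs can be asked. With antagomiR-375 the members called stayed at 0 under every setting with a test (with normexp 238 of all probes were called), and those past the fold rule went from 3 to 0 with normexp, 1 with the deposited values and 4 to 12 with 1 pair left out. Between the lines, the 25 probes higher and 20 lower in TT became 7 and 4 with detection on all 4 arrays and 16 and 11 with normexp, and ranged over 13 to 27 and 12 to 20 with 1 array left out, where the lone array is assumed to vary like the other group. With every probe tested the calls of LINC00461 (adjusted p = 0.0582), LINC00478 (A_24_P229536, 0.051), LINC00256A (0.0669) and LINC00340 (0.059) were lost. With the replicate block the counts were 27 and 19, and with the slide as a random block 24 and 19. Of all probes tested between the lines, 40.9% were called, 33.6% with detection on all 4 arrays and 28.1% with normexp. The share was 42.3% with the replicate block and 40.1% with the slide as a random block. Of 464 recomputed differences of named members 4 changed sign, all near 0 and with 1 array left out: LINC00087 (-0.09 to 0.18), LINC00176 (-0.63 to 0.07) and LINC00085 (-0.04 to 0.53). Members named by size were picked for 1 direction in both pairs or, between the lines, for groups that do not overlap. Leaving out a pair or an array could thus not change their sign. Of the other recomputed differences 34 lost and 19 gained a call by adjusted p alone, which between the lines leaves out the 2-fold limit. LINC00242, LINC00256A, LINC00471, LINC00263, LINC00340, LINC00461 and LINC00478 are given above with the array each call rests on. LINC00511 (A_33_P3741022) was lost without TT control replicate 1 (adjusted p = 0.0606). The causes of these shifts were not tested. The deposited values were not run between the lines, since they were normalized within each line (median difference of sorted values 0.306 between lines).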
